A study of Mus musculus with 21 samples.

Results

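The genes described here are 10 markers of mesoderm subtypes, chosen by symbol as known markers and not by their level: Foxc1, Foxc2, Meox1, Pcdh8 and Tcf15 for paraxial mesoderm, Osr1 for intermediate mesoderm, Hand1, Hand2 and Gata6 for lateral mesoderm, and Twist1 for mesenchyme. All 10 were found among the 23983 genes of the expression table. They were followed through 9 RNA-seq libraries, 1 per condition, to ask what kind of mesoderm the mesoderm progenitors (MPs) of the embryo and their counterparts in culture (MPdiff) resembled. With 1 library per condition there was no replicate error, so every difference compares 2 libraries and no p-value is given.

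The embryonic cells came from mouse embryos made with a triple reporter embryonic stem cell line of the F1G4 background (C57BL/6N x SV129), which carried T::H2B-Venus, Noto::H2B-mCherry and Foxa2::H2B-mTurquoise on bacterial artificial chromosomes. They were sorted by flow cytometry at E8.5 (Theiler stage 12) and E9.5 (Theiler stage 16). MPs were T-positive, Noto-negative and Foxa2-negative cells of the caudal ends, notochord progenitors (NotoPs) were positive for all the reporters in the same caudal ends, and trunk notochord was positive for all of them in the trunk. RNA came from pooled embryos. The cultured cells came from another embryonic stem cell line with TRE::Foxa2-IRES-EGFP in Rosa26, T::H2B-mCherry-T2A-irTA and Noto::H2B-mTurquoise, and all the cultured groups carried these alleles. NMPdiff cells (neuro-mesodermal progenitors) received the Wnt agonist CHIR from day 2 to day 3, MPdiff cells received CHIR from day 2 to day 4, and NotoPdiff cells received CHIR and 1 ng/ml doxycycline from day 2 to day 4, which switched on Foxa2 in cells that expressed T. NMPdiff and MPdiff were sorted as T-positive and Noto-negative, NotoPdiff as positive for both. Embryonic and cultured libraries were sequenced on different instruments, so the instrument and the origin of the cells cannot be told apart.

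Mesoderm leaving the primitive streak and tail bud is sorted along the medio-lateral axis into axial mesoderm (the notochord), paraxial mesoderm (the presomitic mesoderm and somites), intermediate mesoderm (the kidney and gonad anlage) and lateral mesoderm (heart, body wall, limb and gut mesenchyme). Bone morphogenetic protein signals from the lateral side favour lateral fates, and antagonists from the notochord and somites favour medial ones. The MPs at the caudal end are usually thought of as precursors of paraxial mesoderm.

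The 9 libraries listed between 9511 and 11873 genes at 1 FPKM (a read density scaled to transcript length and to library size) or more, and between 7573 and 13945 genes at 0. The E8.5 MP library stood apart with the most genes at 0, and in the study's own listing of the embryonic samples it was made from the fewest cells and had the fewest mapped reads. Of 7154 genes with at least 5 FPKM in each culture library it listed 3.86% at 0, against 0.391% in the E9.5 MP library, so a gene at 0 in it was not read as absent. All 12 housekeeping genes of a fixed list were above 0 in every library. The sorts were visible in the RNA: the summed level of 8 notochord genes was 4.51 FPKM in MPs at E8.5, 5.67 at E9.5 and 4.98 in MPdiff, against 600 and 533 in NotoPs and 293 in NotoPdiff. The list includes Noto and Foxa2, whose reporters were used in the embryonic sorts, so part of this contrast was set by the sorting. In NotoPdiff, Foxa2, which doxycycline switched on, was at 95.5 FPKM of that sum. Noto, the gene that marks node and notochord, was listed at 0 in both embryonic MP libraries and in MPdiff. T, which every sort selected for, was at 74.8 FPKM in MPs at E8.5, 160 at E9.5 and 25.8 in MPdiff.

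The genomic sequence that goes with the binding data is given first, since it shows the sites on which the later part rests. T and Foxa2 were mapped by ChIP-seq in bulk cultures enriched for NotoPdiff cells. T and its T-box relatives recognise sites with the core GGTGTG. Forkhead factors such as Foxa2 recognise sites with the core TNTTTAC. Both strands were searched, so a match on the minus strand appears as its complement. Each window spans 75 bases on either side of a peak summit (151 bases, mm10, plus strand), and capitals mark these letters. The first pair are the peaks of T with the highest enrichment near any of the genes, and the next are T peaks near Foxc2 and Foxc1 whose windows hold GGTGTG.
Pcdh8, T peak, chr14:79701097-79701247: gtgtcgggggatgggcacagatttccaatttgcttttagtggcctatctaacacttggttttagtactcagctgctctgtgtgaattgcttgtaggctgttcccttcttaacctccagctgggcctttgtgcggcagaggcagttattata
Hand1, T peak, chr11:57760655-57760805: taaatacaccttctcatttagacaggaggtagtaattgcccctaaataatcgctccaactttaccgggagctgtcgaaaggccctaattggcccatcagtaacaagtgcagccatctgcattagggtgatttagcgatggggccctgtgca
Foxc2, T peak, chr8:121209193-121209343: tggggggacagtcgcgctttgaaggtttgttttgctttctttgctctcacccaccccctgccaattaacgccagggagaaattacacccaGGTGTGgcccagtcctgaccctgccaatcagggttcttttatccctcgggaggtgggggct
Foxc1, T peak, chr13:31760472-31760622: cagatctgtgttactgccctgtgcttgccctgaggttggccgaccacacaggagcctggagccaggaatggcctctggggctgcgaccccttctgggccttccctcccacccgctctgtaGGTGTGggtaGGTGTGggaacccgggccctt
The next 2 are the Foxa2 peaks of the highest enrichment near Pcdh8 and Foxc2, and they are shown for their repeats of TG or CA.
Pcdh8, Foxa2 peak, chr14:79710763-79710913: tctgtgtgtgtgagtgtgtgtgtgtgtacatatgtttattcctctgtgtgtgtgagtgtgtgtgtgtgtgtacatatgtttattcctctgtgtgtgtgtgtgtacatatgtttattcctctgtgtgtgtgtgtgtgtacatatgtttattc
Foxc2, Foxa2 peak, chr8:121063410-121063560: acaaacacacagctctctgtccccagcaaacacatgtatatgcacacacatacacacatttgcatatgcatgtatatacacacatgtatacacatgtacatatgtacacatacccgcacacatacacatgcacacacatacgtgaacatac

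Foxc1 and Foxc2, the first of the paraxial genes, encode forkhead transcription factors that are needed together for somites to form. Foxc1 lies on mm10 chr13:31806646-31810635 and Foxc2 on chr8:121116171-121118895, each in 1 exon on the plus strand. Foxc1 was at 44.2 FPKM in MPs of E8.5 and 54.0 in those of E9.5, 20.8 and 14.4 in NotoPs, 12.7 and 6.55 in trunk notochord, 8.97 in NMPdiff, 15.96 in NotoPdiff and 33.9 in MPdiff. Foxc2 was at 28.6 and 23.7 FPKM in MPs, 2.77 and 2.13 in NotoPs, 9.69 and 3.49 in trunk notochord, 0.513 in NMPdiff, 3.20 in NotoPdiff and 9.64 in MPdiff. For both genes the embryonic MP libraries were the highest of the 9, and MPdiff was the highest of the cultures. Foxc1 was above 6 FPKM in all 9 libraries, whereas Foxc2 was below 1 FPKM in NMPdiff.

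Pcdh8, the paraxial protocadherin that acts in cell adhesion at somite borders, lies on chr14:79766772-79771312 on the minus strand and overlaps the predicted gene Gm9748. It was at 20.3 FPKM in MPs of E8.5 and 11.8 in those of E9.5, 1.27 and 0.162 in NotoPs, 3.55 and 4.48 in trunk notochord, 3.51 in NMPdiff, 1.29 in NotoPdiff and 6.67 in MPdiff. The MPs were higher than every other library, MPdiff came next, and NotoPs and NotoPdiff were the lowest. Meox1, a homeobox factor of somites (chr11:101877510-101894354, minus strand, 3 exons), was at 37.6 and 14.3 FPKM in MPs, 14.9 and 16.04 in NotoPs, 25.9 and 14.0 in trunk notochord, 0 in NMPdiff, 5.64 in NotoPdiff and 11.6 in MPdiff. Its level in NotoPs was therefore in the range of that in E9.5 MPs, and in culture it was found only after the longer CHIR treatment, in NotoPdiff as in MPdiff. Tcf15, or paraxis, is a basic helix-loop-helix factor that turns somites into epithelia (chr2:152143056-152149097, plus strand, 2 exons). Tcf15 was listed at 0 in MPs at E8.5 and was at 8.35 FPKM at E9.5, at 1.01 and 0 in NotoPs, 11.8 and 0 in trunk notochord, 0.462 in NMPdiff, 0.680 in NotoPdiff and 2.85 in MPdiff. At E8.5 its highest level was in trunk notochord, and its 0 in MPs stands in the library where expressed genes were most often at 0.

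Osr1 encodes a zinc finger factor that is needed for kidney and heart development and is an early gene of intermediate and lateral mesoderm. It lies on chr12:9574442-9581500, on the plus strand, in 3 exons. It was at 34.8 FPKM in MPs of E8.5 and 3.18 in those of E9.5, 2.81 and 0 in NotoPs, 4.37 and 0 in trunk notochord, 0 in NMPdiff, 0.363 in NotoPdiff and 7.78 in MPdiff. At each stage MPs exceeded NotoPs, but the 2 MP libraries differed by 10.9-fold, and MPdiff lay between them.

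The lateral genes separated the 2 MP stages. Hand1 and Hand2 encode basic helix-loop-helix factors of lateral mesoderm, heart and extra-embryonic mesoderm. Hand1 (chr11:57828713-57832147, minus strand, 2 exons, overlapping the predicted gene Gm32915) was at 10.9 FPKM in MPs of E8.5 and 0.241 in those of E9.5, 0.497 and 0 in NotoPs, 0 in both trunk notochord libraries, 0.302 in NMPdiff, 0.0513 in NotoPdiff and 26.4 in MPdiff. Only MPs at E8.5 and MPdiff held more than 1 FPKM of it. Hand2 (chr8:57320983-57324517, plus strand, 2 exons) was at 22.1 FPKM in MPs at E8.5, 1.06 in trunk notochord at E9.5 and 0.797 in MPdiff, and was listed at 0 in the remaining 6 libraries. Hand2 thus rested on 1 library, the one with the most genes at 0. Gata6, a zinc finger factor of endoderm as well as of heart and lateral mesoderm (chr18:11052510-11085636, plus strand, 7 exons, overlapping Gata6os), was at 4.06 and 0 FPKM in MPs, 0.295 and 0 in NotoPs, 14.5 and 0.744 in trunk notochord, 5.58 in NMPdiff, 1.08 in NotoPdiff and 3.51 in MPdiff. Gata6 was highest outside the MPs, and NMPdiff had more of it than MPdiff.

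Twist1, a basic helix-loop-helix factor of head, limb and sclerotome mesenchyme (chr12:33957671-33959831, plus strand, 2 exons), was at 3.18 and 2.81 FPKM in MPs, 1.74 and 0 in NotoPs, 4.05 and 21.9 in trunk notochord, 5.25 in NMPdiff, 5.08 in NotoPdiff and 23.3 in MPdiff. It was high in 2 libraries, E9.5 trunk notochord and MPdiff, and low in the embryonic MPs.

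**Figure D1:**
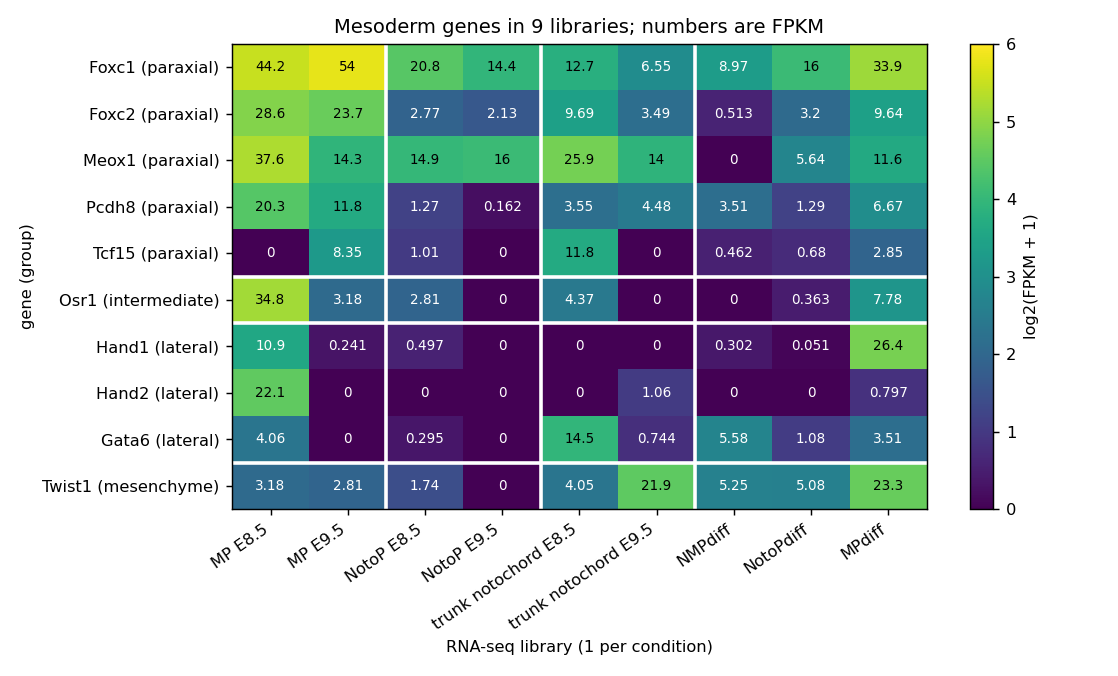
Level of the 10 genes (rows, with their group) in the 9 libraries (columns); colour is log2(FPKM + 1) and the printed numbers are FPKM. The paraxial genes are high in both MP libraries except Tcf15 at E8.5, and the lateral genes are at or near 0 in E9.5 MPs but not in E8.5 MPs.

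The first comparison set MPs against NotoPs, the sister population of the same caudal ends. A gene was called when (FPKM + 1) differed at least 3-fold, and log2 ratios are on this scale. At E8.5, 6 of the 10 genes were called higher in MPs and 0 lower, where 7.4% of 11922 genes tested were called higher and 16.6% lower. The 6 were Pcdh8 (log2 ratio 3.23), Osr1 (3.23), Hand1 (3.00), Foxc2 (2.97), Gata6 (1.97) and Hand2, which was listed at 0 in NotoPs. All the lateral genes were among them. With 5 FPKM added in place of 1 the count was 4, and Hand1 (1.54) and Gata6 (0.78) were not called. The median log2 ratio was 2.47 over the 10 genes and -0.10 over all genes tested. Foxc1 (1.05), Meox1 (1.28) and Twist1 (0.61) were higher in MPs by less than 3-fold, and Tcf15, listed at 0 in MPs, was the one gene in the other direction.

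At E9.5, 6 of the 10 genes were again called higher in MPs and 0 lower, against 2.0% of all genes higher and 4.84% lower. They were Pcdh8 (log2 ratio 3.46), Foxc2 (2.98) and Foxc1 (1.84), and Tcf15, Osr1 and Twist1, each listed at 0 in NotoPs. No lateral gene was called: Hand2 and Gata6 were listed at 0 in both libraries and Hand1 was at 0.241 FPKM against 0. Meox1 differed by -0.16. The median log2 ratio was 1.88 over the 10 genes and -0.02 over all genes. Foxc2, Pcdh8 and Osr1 were called at both stages, 3 of 10, where 57 genes or 0.478% of those tested were. Of these 3, Foxc2 had log2 ratios of 2.97 and 2.98 and Pcdh8 of 3.23 and 3.46, while Osr1 fell from 34.8 to 3.18 FPKM in MPs between the stages.

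In culture, MPdiff against NotoPdiff contrasted cells given CHIR alone with cells given CHIR and doxycycline. All 10 genes were higher in MPdiff, 4 of them by the 3-fold call and 0 lower, against 0.78% of all genes higher and 2.82% lower. The called genes were Hand1 (log2 ratio 4.70), Osr1 (2.69), Twist1 (2.00) and Pcdh8 (1.75). The remaining paraxial genes lay at 1.34 for Foxc2, 1.196 for Tcf15, 1.04 for Foxc1 and 0.92 for Meox1. The median was 1.27 over the 10 genes and -0.02 over all genes. With 5 FPKM added in place of 1, the count of 4 fell to 1. Osr1 and Pcdh8 were the genes called in each of the contrasts of MPs with NotoPs, at E8.5, at E9.5 and in culture. With 5 FPKM added, Osr1 was not called at E9.5 (0.71) or in culture (1.25), nor Pcdh8 in culture (0.89). In bulk RNA, fewer cells of a kind and less RNA per cell cannot be told apart.

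**Figure D2:**
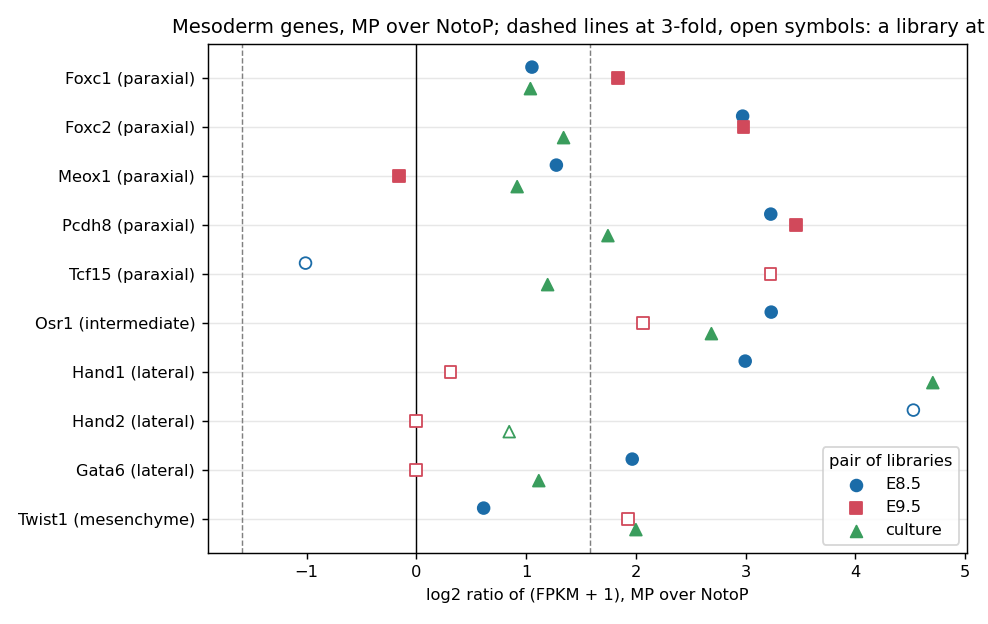
Log2 ratio of (FPKM + 1), MPs over NotoPs, of the 10 genes for the E8.5, E9.5 and culture pairs of libraries; dashed lines mark 3-fold and open symbols a pair in which 1 or both libraries are at 0. Foxc2 (2.97 and 2.98) and Pcdh8 (3.23 and 3.46) lie close together at E8.5 and E9.5, and the lateral genes lie apart, with Hand1 at 3.00 at E8.5 and 4.70 in culture.

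MPdiff was also compared with NMPdiff, the population that received CHIR for a shorter time. Here 6 of 10 genes were called higher and 0 lower, against 1.72% of all genes higher and 2.55% lower. With 5 FPKM added the count was 2, Hand1 and Meox1. The 6 were Hand1 (log2 ratio 4.40), Foxc2 (2.81), Twist1 (1.96) and Foxc1 (1.81), and Meox1 and Osr1, both listed at 0 in NMPdiff. Pcdh8 (0.77) and Tcf15 (1.40) were higher by less than 3-fold on this scale, and Gata6 (-0.54) was lower. The median was 1.88 over the 10 genes and -0.02 over all genes. NotoPdiff against NMPdiff gave 1 gene higher, Meox1, and 1 lower, Gata6 (-1.66), where 2.35% of all genes were higher and 1.23% lower. These contrasts share the NMPdiff library, and their values side by side show that Meox1 went up in both, to 11.6 and 5.64 FPKM, while Hand1 went to 26.4 FPKM in MPdiff and 0.0513 in NotoPdiff.

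The trunk notochord was compared with the progenitors of each stage, to see what happens to mesoderm genes outside the caudal end. Against NotoPs at E8.5, Gata6 (log2 ratio 3.58) and Tcf15 (2.67) were called higher in trunk notochord and 0 genes lower, where 7.37% of all genes were higher and 7.39% lower. Against NotoPs at E9.5, Pcdh8 (2.24) and Twist1, listed at 0 in NotoPs, were higher and 0 lower, where 7.08% of all genes were higher and 9.71% lower. Against MPs at E8.5, Gata6 (1.61) and Tcf15, at 0 in MPs, were higher in trunk notochord, 2 of 10 where 18.6% of all genes were, and 5 were lower where 8.51% were: Osr1 (-2.74), Pcdh8 (-2.22), Foxc1 (-1.73), Hand1 and Hand2, the last 2 listed at 0 in trunk notochord. Against MPs at E9.5, Twist1 (2.59) was the 1 gene higher, where 9.62% of all genes were, and 4 were lower where 8.65% were: Foxc1 (-2.86), Foxc2 (-2.46), and Tcf15 and Osr1, both listed at 0. The 2 counts of higher genes against MPs are close to the share of all genes. Foxc1 and Osr1 were lower than in MPs at both stages.

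Between the stages, the MPs themselves changed, and the 3-fold calls differed by group. Tcf15, at 0 at E8.5, was the 1 gene higher at E9.5, where 11.7% of all genes were, and 4 were lower where 5.95% were. The lower genes were Hand1 (log2 ratio -3.27), Osr1 (-3.10), and Hand2 and Gata6, both listed at 0 at E9.5. They were all the lateral genes and the intermediate one. With 5 FPKM added 3 were lower, and Gata6 (-0.86) was not called. Of the paraxial genes, Meox1 (-1.34) and Pcdh8 (-0.74) were lower as well, by less than 3-fold. With a 2-fold call 5 genes were lower, Meox1 among them. Twist1 (-0.14), Foxc2 (-0.26) and Foxc1 (0.28) differed least of the 10. E8.5 and E9.5 MPs are single libraries from different pools of embryos, and the E8.5 one was made from far fewer cells and reads, so stage and input cannot be told apart here.

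The share of each group in the summed level of the 10 genes puts this in 1 measure. In E8.5 MPs, the paraxial genes made up 63.5% of 206 FPKM, Osr1 16.9%, the lateral genes 18.0% and Twist1 1.55%. In E9.5 MPs they made up 94.7% of 118 FPKM, with 2.69% for Osr1, 0.204% for the lateral genes and 2.37% for Twist1. In MPdiff the paraxial share was 51.1% of 126 FPKM, with 6.16% for Osr1, 24.3% for the lateral genes and 18.4% for Twist1. Most of the lateral sum of MPdiff was Hand1, and Foxc1 made up 26.8% of its whole sum. The order of E8.5 MPs and MPdiff depended on the scale and on the genes summed. On sums of log2(FPKM + 1) the lateral share was 27.7% in E8.5 MPs and 23.9% in MPdiff. With the genes of the mesoderm lists added it was 18.2% and 14.8%. Those sums count Aldh1a2 as paraxial, and it alone was at 364 FPKM in MPdiff against 16.05 in E8.5 MPs. The order without Aldh1a2 was not computed. E9.5 MPs had the smallest lateral share of these libraries in each case. NotoPs at E9.5 held paraxial genes alone (100% of 32.7 FPKM), mostly Foxc1 and Meox1, and NotoPdiff held 80.3% of 33.3 FPKM. The shares have no counting interval because FPKM keep no read counts.

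**Figure D3:**
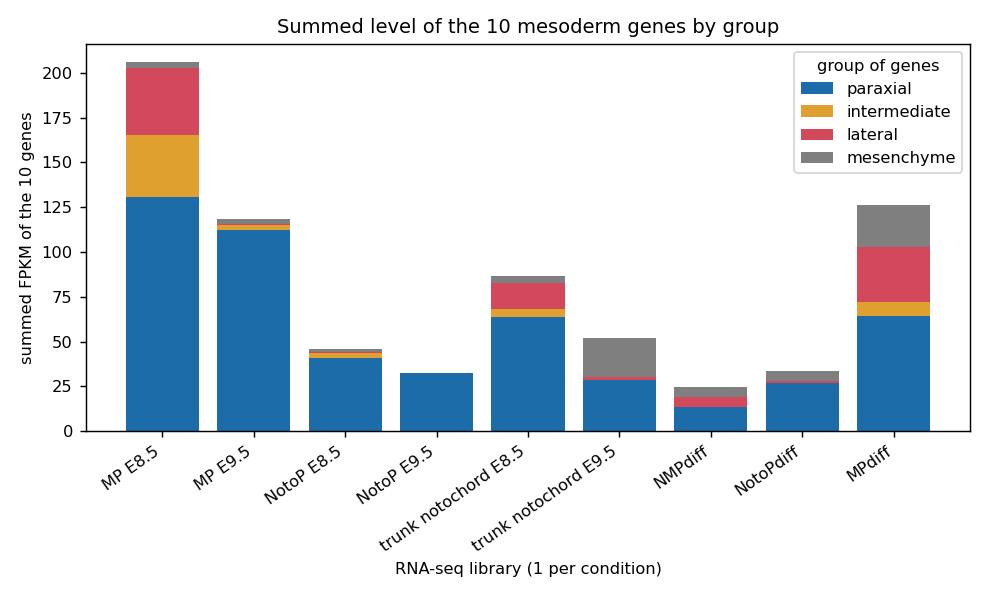
Summed FPKM of the 10 genes in each library, stacked by group. The lateral genes fill 18.0% of the bar in E8.5 MPs, 0.204% in E9.5 MPs and 24.3% in MPdiff.

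Other genes of each subtype, from fixed lists that hold none of the 10, were read in the same libraries. Of 9 presomitic genes, the early paraxial programme under Wnt, Notch and Tbx6 control, 7 were at 1 FPKM or more in MPs at E8.5, 9 at E9.5 and 9 in MPdiff, with sums of 231, 591 and 307 FPKM. Rspo3, a Wnt agonist, led in each of them with 66.1, 155 and 93.8 FPKM. Msgn1, a target of Tbx6 and Wnt that drives exit from the progenitor state, was at 27.5, 123 and 25.1 FPKM. NotoPs were not devoid of these genes, with sums of 386 and 320 FPKM. Against NotoPs, MPs had 0 of 9 called higher and 1 lower (Hes7, an oscillating repressor) at E8.5, and 2 higher (Dll1 and Ripply2) and 0 lower at E9.5. MPdiff had 1 higher than NotoPdiff (Mesp2, a segmentation factor) and 3 higher than NMPdiff (Dll1, Hes7 and Rspo3), with 0 lower in both. In MPs, E9.5 had 4 higher than E8.5 (Msgn1, Dll3, Hes7 and Ripply2) and 0 lower. Of all genes, 7.4% were higher and 16.6% lower in E8.5 MPs than in their NotoPs, 2.0% and 4.84% in the pair of E9.5, 0.78% and 2.82% in MPdiff than NotoPdiff, 1.72% and 2.55% in MPdiff than NMPdiff, and 11.7% and 5.95% in E9.5 than E8.5 MPs. These shares are also those against which the counts of the other lists below are to be read.

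Genes of formed somites were mostly low in MPs. Of 11, 4 were at 1 FPKM or more in both embryonic MP libraries and 3 in MPdiff, and Pax1, Nkx3-2, Ripply1 and Myf5 were at 0 in all the MP libraries. Aldh1a2, which makes retinoic acid in somites and lateral mesoderm alike, was at 364 FPKM in MPdiff, 70.3 in NotoPdiff, 0.301 in NMPdiff, 16.05 in MPs at E8.5 and 7.88 at E9.5. Of the 5 somite genes that passed the expression filter, Meox2 and Pax3 were higher and Uncx lower in MPs than NotoPs at E8.5, and Pax3 was higher and Uncx and Aldh1a2 lower at E9.5. Aldh1a2 was the 1 of 5 called in MPdiff against either culture.

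Intermediate mesoderm genes beyond Osr1 gave little. Of 9, 3 were at 1 FPKM or more in MPs at E8.5, 2 at E9.5 and 5 in MPdiff, and most of the sum was Sall1, a zinc finger factor also found in caudal progenitors, at 80.0, 136 and 58.3 FPKM. Pax2 and Pax8, which define the nephric lineage, were both at 0 in MPs at E8.5, at 0.151 and 0 at E9.5, and at 1.32 and 0.135 in MPdiff. Gata3, a nephric duct factor that other epithelia also express, was at 22.6 FPKM in MPs at E8.5, 0.711 at E9.5 and 1.46 in MPdiff, and was the 1 of 6 tested genes called in MPs against NotoPs at E8.5, where 7.4% of all genes were higher, so the list gives no more than this gene. At E9.5 and in MPdiff against NotoPdiff 0 of 6 were called, where 2.0% and 0.78% of all genes were higher.

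The sum of the lateral list had the order of Hand1 in MPs and MPdiff, but not over all libraries. It was 34.9 FPKM in E8.5 NotoPs with Hand1 at 0.497, and 39.1 in E9.5 trunk notochord with Hand1 at 0. Of 16 genes, 9 were at 1 FPKM or more in MPs at E8.5, 3 at E9.5 and 9 in MPdiff, with sums of 81.5, 14.0 and 116 FPKM. Foxf1, a forkhead factor of splanchnic mesoderm and allantois, was at 26.8, 0.566 and 36.6 FPKM. Tbx20, a T-box factor of heart mesoderm, was at 15.3, 0 and 0.399. Prrx2, a homeobox factor of limb and body wall mesenchyme, was at 6.90, 0.810 and 27.5, and Bmp4, a lateral signal, at 5.21, 2.29 and 15.0. The heart factors Nkx2-5 and Tbx5 were at 0 in both embryonic MP libraries. From E8.5 to E9.5 in MPs, 5 of 11 tested genes were lower (Foxf1, Tbx4, Tbx20, Prrx1 and Prrx2) and 0 higher. MPdiff had 5 of 11 higher than NotoPdiff (Foxf1, Isl1, Prrx2, Msx1 and Msx2) and 6 of 11 higher than NMPdiff (Foxf1, Prrx1, Prrx2, Bmp4, Msx1 and Msx2), with 0 lower in both. MPs had 2 of 11 higher than NotoPs at E8.5 (Foxf1 and Isl1) and 0 lower, where 7.4% of all genes were higher, and 1 higher (Msx2) and 1 lower (Bmp4) at E9.5, where 2.0% were higher and 4.84% lower. The libraries shared Hand1 and Foxf1 but not Hand2 and Tbx20, which were at 22.1 and 15.3 FPKM in E8.5 MPs and below 1 in MPdiff.

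**Figure D4:**
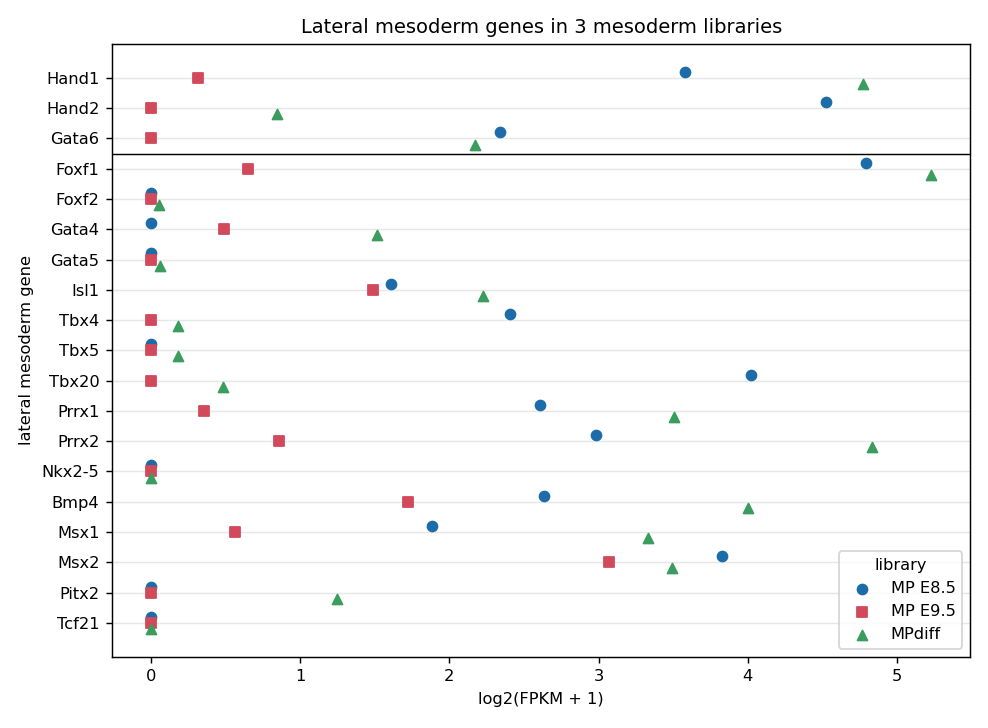
Level, as log2(FPKM + 1), of the 3 lateral genes (top) and 16 further lateral mesoderm genes in MPs at E8.5, MPs at E9.5 and MPdiff. Foxf1 is at 26.8 FPKM in E8.5 MPs, 0.566 in E9.5 MPs and 36.6 in MPdiff.

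Markers of other cell types were read beside these results. A list of 8 gut and epithelial genes had 7 at 1 FPKM or more in MPs at E8.5 with a sum of 90.7 FPKM (Krt8 at 30.2, Epcam at 22.7 and Krt18 at 16.7), against 3 and 5.84 FPKM at E9.5 and 4 and 28.2 FPKM in MPdiff. In NotoPs the sums were 629 and 229 FPKM. Foxa2, which also marks gut, was at 1.25 FPKM in MPs at E8.5, and Hnf4a was at 0 in all the MP libraries. The gut list was therefore lower at E9.5 than at E8.5, as the lateral genes were, and its part in that result was not tested. The lateral list had sums of 81.5 FPKM in E8.5 MPs and 116 in MPdiff. MPdiff is a culture, so its sums do not bear on the cells of the E8.5 sort. Of 10 blood and endothelial genes, 0 were at 1 FPKM or more in both embryonic MP libraries and 2 in MPdiff (Kdr at 3.22 and Etv2 at 1.78). Of 8 neural genes, 3 were at 1 FPKM or more in MPs at E8.5, 2 at E9.5 and 3 in MPdiff, with sums of 14.9, 6.56 and 8.13 FPKM. Without the E8.5 MP library, with E9.5 MPs set against E8.5 NotoPs, 3 genes were called in place of 6: Foxc2, Pcdh8 and Tcf15.

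To ask which libraries the MPdiff profile was most like, log2(FPKM + 1) was correlated over the 10 genes and 45 genes of the mesoderm lists. Pearson's r of MPdiff was 0.84 with NotoPdiff, 0.78 with E8.5 NotoPs, 0.75 with E8.5 MPs, 0.70 with E9.5 MPs and 0.68 with E9.5 NotoPs. Spearman's rho gave another order, with 0.79 for E9.5 MPs, 0.77 for NotoPdiff, 0.77 for E8.5 MPs and 0.76 for E8.5 NotoPs. It was 0.69 for NMPdiff, whose Pearson's r was 0.61, and 0.57 for E9.5 NotoPs. No library was therefore the closest by both measures. Over the 10 genes alone Pearson's r was 0.61 with NotoPdiff, 0.59 with E8.5 NotoPs and 0.45 with both E9.5 NotoPs and E9.5 trunk notochord. It was 0.42 with E9.5 MPs, 0.37 with NMPdiff and 0.26 with E8.5 MPs. The mean absolute difference of log2(FPKM + 1) over the 10 genes gave another order. It was 1.53 for E8.5 trunk notochord, 1.54 for E9.5 MPs, 1.65 for E8.5 MPs and 1.76 for NotoPdiff. All these measures are taken across genes, which are not independent replicates, and cultures share their cell line and instrument.

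Genes whose pattern over the 9 libraries was most like that of each marker were listed by Pearson's r of log2(FPKM + 1). Hand1 went with Ndnf (r = 0.97), a secreted factor, and Foxf1 (0.96). Foxc1 went with Lingo1 and Alpl (both 0.93). Foxc2 went with Arhgap28 and Osr1 with Ppp2r3a (both 0.92). Meox1 went with Amotl1 (0.95) and C2cd2 (0.92), Pcdh8 with Dhx9 (0.96) and Lmnb1 (0.94), and Tcf15 with Vstm2b and Acyp2 (both 0.91). Gata6 went with Tlcd1 (0.98) and Pkmyt1 (0.96), and Twist1 with Cttnbp2 (0.95) and Pbx3 (0.90). Hand2 went with Mtor and 6430531B16Rik (both 0.97), which were at 30.2 and 29.1 FPKM in E8.5 MPs, so that this likeness rests on 1 library.

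The ChIP-seq peaks address whether T or Foxa2 was bound near these genes in the NotoPdiff-enriched cultures. A T peak summit lay within 100 kb of the start of 7 of 10 genes, where 50.4% of 10805 protein-coding genes tested had one, and a Foxa2 summit within 100 kb of 8 of 10, where 80.7% had one. For Foxa2 the share is that of all genes, and for T it is above that of all genes by 2 of 10 genes. The 7 with T were Foxc1, Foxc2, Meox1, Pcdh8, Tcf15, Hand1 and Gata6, and Hand2 was added for Foxa2. Osr1 and Twist1 had neither. No summit of either factor lay within 4 kb of the start of any of the 10 genes. Starts of neighbours were nearer to some summits. A Foxa2 summit counted for Foxc2 lay 116 bases from the start of Foxl1, and a T summit counted for Meox1 lay 1290 bases from that of Sost. The nearest T summit was that of Hand1 at 4442 bases downstream (6.72-fold, intergenic), and its window held 1 GGTGTG and 1 TNTTTAC. The nearest Foxa2 summit was that of Gata6 at 5294 bases, in an intron.

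The T peak of the highest fold enrichment lay 71417 bases downstream of Hand1, in an intron of Galnt10 (14.1-fold over background, chr11:57760502-57761070), and the one near Pcdh8 lay 70140 bases downstream (11.6-fold, chr14:79700961-79701661). Their nearest starts were those of Sap30l, 40907 bases away, and Cnmd, 38978 bases away. Their windows, printed above, hold neither GGTGTG nor TNTTTAC. Around the 10 genes, 7 of the 11 T peaks had the gene itself as the nearest start, 9 were intergenic, and their median enrichment of 5.73 was below the 7.45 of all T peaks. The letters GGTGTG were in the windows of 3 of these 11 peaks, against 18.3% of all 6871 T peaks and 9.14% of windows placed 10 kb away. TNTTTAC was in 3 of 11, against 20.2% and 8.99%.

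Around Foxc2 the Foxa2 peaks clustered, 6 within 100 kb, at 6.96- to 11.7-fold. Their nearest starts were those of its neighbours Foxl1, for 5 of them, and Foxf1, for the one in an intron of Fendrr 52686 bases upstream (11.7-fold). Hand2 also had 6, at 5.33- to 7.32-fold. Gata6 had the 1 site that both factors shared, 80282 bases downstream by the T summit and 80292 by the Foxa2 summit (7.93- and 16.9-fold, intergenic), and Pcdh8 had a Foxa2 peak of 16.4-fold at 60474 bases downstream. Of the 23 Foxa2 peaks, 10 had the gene itself as the nearest start and 3 held TNTTTAC, where 26.7% of all 22680 Foxa2 peaks and 9.92% of windows 10 kb away did.

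Runs of TG or CA were common in the Foxa2 windows, as in the sequences of Pcdh8 and Foxc2 above. The letters TGTGTGTG (or CACACACA on the other strand) were in 12 of the 23 windows and in 0 of the 11 T windows. They were in 39.0% of all Foxa2 windows and 5.55% of windows 10 kb away, and in 3.94% of T windows and 5.79% of windows 10 kb from them. The Pcdh8 window held 20 overlapping matches. These letters can overlap GGTGTG, which stood in 4 of the 23 Foxa2 windows.

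**Figure D5:**
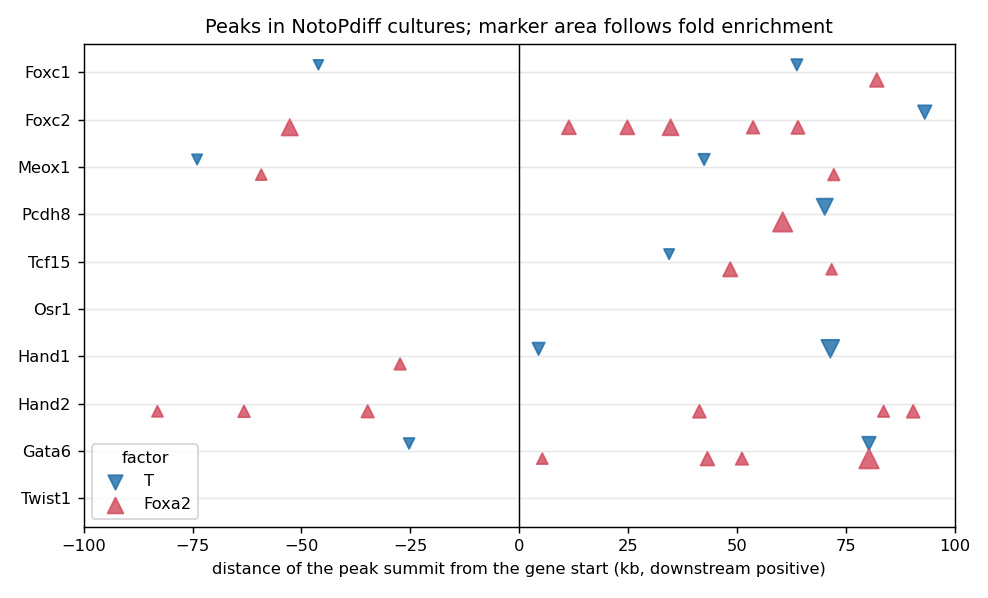
Summits of T and Foxa2 peaks within 100 kb of the start of each gene, by distance in kb (downstream positive); the area of a marker follows its fold enrichment. Osr1 and Twist1 have no peak, and T and Foxa2 summits coincide once, 80282 bases downstream of Gata6.

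The promoters, from 250 bases before to 50 after the start, were given for 4 of the 10 genes (Foxc1, Pcdh8, Hand2 and Twist1; RefSeq, GRCm38.p6). Pcdh8 is printed because it is the 1 of these 4 that was called in all 3 contrasts of MPs with NotoPs. The window of chr14:79771263-79771562, minus strand, has TATAAA, the core of the TATA box, in capitals.
Pcdh8 promoter: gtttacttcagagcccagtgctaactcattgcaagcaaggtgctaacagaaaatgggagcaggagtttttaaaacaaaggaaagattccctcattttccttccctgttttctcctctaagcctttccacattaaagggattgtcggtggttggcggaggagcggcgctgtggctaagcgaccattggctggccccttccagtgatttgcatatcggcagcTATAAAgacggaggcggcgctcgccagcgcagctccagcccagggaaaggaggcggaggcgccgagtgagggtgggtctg
The same letters were in the Twist1 promoter and in 13.6% of 32851 promoters, counting both strands. GGTGTG was in 0 of the 4 and in 19.05% of all promoters, and TNTTTAC was in those of Foxc1 and Hand2 and in 12.4% of all. No ChIP-seq peak overlapped these windows, as the distances above show.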

How the data were processed

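RNA-seq values were deposited by the authors as 1 table of FPKM per gene for 9 libraries (TopHat2 2.1.1 with Bowtie 1.2.2 on mm10, deduplication by molecular identifiers, Cufflinks 2.2.1, strand-specific), and all its columns were used. Peaks were called by the authors per library with MACS3 3.0.0b1 (Bowtie 1.3.1, q cutoff 0.1). The deposited peak files hold a fold enrichment (a ratio to background), −log10 p and −log10 q values and an integer score. FPKM keep no read counts, so the counts behind a value are unknown, and the read totals that the study lists for the embryonic samples were not used here. The other 10 samples of the series (ATAC-seq and histone marks) were not analysed here.

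From these, log2 ratios of (FPKM + 1) were computed with Python 3 over the 11922 genes averaging 1 FPKM or more across the 9 libraries, and called at 3-fold, with no test, since each condition has 1 library. The rule was run on simulated data with set changes larger than 3-fold and little noise. That run cannot give the error rate of the rule in these libraries. No fold is given against a library at 0. Peaks were assigned by the distance of the summit from the RefSeq start (mm10). The genes named were the 10 markers in every comparison, at most the leading genes of each fixed list, genes called in a list, the 2 genes of highest r per marker and the strongest peak of each factor. Other genes of the lists, such as Pax2, Pax8 and Aldh1a2, were named after their values were seen, and so were the letters searched in the windows. The markers and lists were chosen with earlier results of these data known. Alternatives (pseudocounts of 0.1 and 5, no filter, rescaling by the median of ratios, a 2-fold call, windows of 50 and 20 kb, a q of 0.001) are given at the end. Some items that these rules name are not reported here.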

Additional observations from a re-analysis of the deposited data

Results flagged for a closer look

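Of the 10 genes, 2 had ratios of opposite sign at E8.5 and E9.5 in the same contrast, with at least 1 of them past 3-fold; the difference was not tested, since each condition has 1 library. Tcf15 had a log2 ratio of (FPKM + 1), MPs over NotoPs, of -1.01 at E8.5 against 3.22 at E9.5, and of 3.68 and -3.22 for trunk notochord over MPs. It was listed at 0 in MPs at E8.5, and in NotoPs and trunk notochord at E9.5. Hand2 had a log2 ratio of trunk notochord over MPs of -4.53 at E8.5 and 1.05 at E9.5, with 0 in trunk notochord at E8.5 and in MPs at E9.5. In both genes the change of sign rests on libraries at 0, so the size of each ratio depends on the 1 FPKM added.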

How the results depend on the processing

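No paired analysis was possible because each condition has 1 library. With a pseudocount of 5 the genes called higher became 3 for MPs over NotoPs at E9.5, 1 for MPdiff over NotoPdiff, 2 for MPdiff over NMPdiff, 0 for NotoPdiff over NMPdiff (and 0 lower), 1 at either stage for trunk notochord over NotoPs, 1 for trunk notochord over MPs at E8.5 (3 lower), with 2 lower at E9.5, and 0 for MPs at E9.5 over E8.5. With a pseudocount of 0.1 they became 7 for MPdiff over NotoPdiff, 3 for NotoPdiff over NMPdiff, 4 for trunk notochord over NotoPs and 3 over MPs at E9.5. With a 2-fold call they became 8 for MPdiff over NotoPdiff, 2 for NotoPdiff over NMPdiff, 4 for trunk notochord over NotoPs at E8.5 and 2 over MPs at E9.5. With E9.5 in place of E8.5 MPs, chosen after seeing the data, 3 were higher than in E8.5 NotoPs, and trunk notochord at E8.5 had 1 higher and 1 lower. Rescaling and dropping the filter on low values moved none of these counts beyond 1.5 times, and under rescaling all 100 calls of the 10 genes in 10 comparisons stayed, with 84 and 77 of 100 under pseudocounts of 0.1 and 5 and no called gene changing sign. The count of 3 genes called at both stages did not move beyond 1.5 times under any of these, but the genes did change. Osr1 was not called at E9.5 with a pseudocount of 5 (0.71). With E9.5 in place of E8.5 MPs it was not called either (0.13), and Tcf15 (2.22) was called instead. The paraxial share became 53.2%, 83.1% and 52.4% in E8.5 MPs, E9.5 MPs and MPdiff from sums of log2(FPKM + 1), 53.5%, 90.3% and 33.2% without the highest gene, and 59.5%, 82.1% and 74.2% with the mesoderm lists added, so whether E8.5 MPs or MPdiff had the larger paraxial share depended on the genes summed. The lateral share, recomputed after seeing the data, became 27.7%, 1.22% and 23.9%, then 22.9%, 0.375% and 33.2%, and then 18.2%, 1.59% and 14.8% in the same order. Both shares with the mesoderm lists added count Aldh1a2 as paraxial, at 364 FPKM in MPdiff and 16.05 in E8.5 MPs, and were not computed without it. Genes with a Foxa2 peak became 5 within 50 kb (58.4% of all genes) and 2 within 20 kb (30.9%), and with a T peak 1 within 20 kb (16.6%), while a q of 0.001 changed neither count. The low FPKM, and the 13945 genes at 0 in E8.5 MPs, limit what can be said of Tcf15 and Hand2.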

Other observations

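Trunk notochord at E9.5 had more of some genes of other mesoderm than NotoPs of that stage, and less of others. Pax2 was at 12.6 FPKM and Pax8 at 14.8, both nephric factors, with Lhx1 at 8.64, against 0 for each in NotoPs at E9.5. Prrx1, a mesenchyme factor, was at 16.8 FPKM against 0.908, Tcf21, a factor of visceral mesenchyme, at 9.69 against 0, and Pax1, a sclerotome factor, at 13.5 against 0. Twist1 was at 21.9 FPKM in the same library, while Osr1 and Hand1 were at 0. Of the same lists, Sall1 was lower, at 19.9 against 65.1 FPKM, and so was Bmp4, at 2.38 against 9.69. NotoPs at E8.5 had Prrx1 at 3.63 FPKM, Tcf21 at 0.769, Lhx1 at 0.686 and Pax2 at 0.312. In trunk notochord at E8.5 the genes beside Gata6 (14.5 FPKM) were Gata4 at 8.43 and Gata5 at 2.00, and Pax2, Pax8 and Pax1 were at 0. Against NotoPs at E8.5, 1 of the 11 lateral list genes tested was higher there (Gata4) and 4 were lower (Tbx4, Bmp4, Msx1 and Msx2), where 7.37% of all genes were higher and 7.39% lower. These genes were picked after their values were seen, each rests on 1 library, and the part of other cells in the sort was not tested.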
